A study of Mus musculus with 6 samples.

Results

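The genes described here are 36 genes of autophagy and the lysosome, measured in mouse liver 2 h after an oral dose of CBZ or of its solvent. They were chosen by name, from the groups of genes that control, start, carry out and complete autophagic degradation, and every probe of the array that carries 1 of these names was taken. This gave 54 of the 55681 probes on the array, of which 51 were bright enough to be compared, and each of the 36 genes kept at least 1 probe. The rule takes genes by name and uses no measured value, but the members were chosen with earlier results of these data known.

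The tissue was whole liver, and the animals were of the inbred strain C57BL6/J. The labels give 3 treated mice, dosed at 250 mg/kg with a compound named only as CBZ, and 3 control mice, dosed with the solvent dimethyl sulfoxide (DMSO). Both groups were dosed by mouth and sampled at 2 h, so the data cover 1 dose and 1 time, and each mouse gave 1 array. The age of the mice is not given in the sources used here.

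In macroautophagy a double membrane closes around cytoplasm, organelles or protein aggregates and fuses with the lysosome, whose acid hydrolases digest the content. The kinases and lipid kinase subunits that start the process act upstream of a conjugation system that attaches ATG8 proteins such as LC3 to the growing membrane. The transcription factors TFEB, TFE3 and MITF bind E-box sequences in the promoters of many of these genes and are held in the cytoplasm when the nutrient-sensing kinase complex mTORC1 is active. In liver, autophagy supplies amino acids and fatty acids during fasting and removes lipid droplets, mitochondria and aggregates. Much of the control of autophagy acts on proteins and not on transcript levels, which are what an array measures.

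The promoters were searched for the E-box CACGTG and for its extension TCACGTGA, which contains CACGTG. Each motif reads the same on both strands. The search covered 250 bases before to 50 bases after the gene start in the RefSeq promoter table of the build GRCm38.p6, in which 31 of the 36 genes were found. Atg12, Map1lc3a, Becn1, Ctsb and Atp6v1h were not searched. CACGTG stood in the promoters of 12 of the 31 genes (38.71%), against 8.093% of all 27025 genes in the table. TCACGTGA stood in 6 of the 31 (19.35%), against 1.125% of all genes. All genes of the table were not matched to the members in signal or base content, and the difference in shares was not tested. As E-boxes are known in many genes of this kind, the shares describe the choice of genes and not the arrays. These 6 genes are shown because they carry the longer of the motifs, and their differences are taken up again after the groups of genes. Their windows are given 5′ to 3′ on the strand of the gene, with TCACGTGA in capitals.
Atg3 (chr16:45158731-45158790, plus strand): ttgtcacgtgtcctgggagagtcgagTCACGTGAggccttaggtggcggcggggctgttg
Atp6v0d1 (chr8:105566050-105566094, minus strand): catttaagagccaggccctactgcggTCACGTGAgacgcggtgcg
Atp6v1a (chr16:44139358-44139417, minus strand): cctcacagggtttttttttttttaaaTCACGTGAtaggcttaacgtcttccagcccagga
Ctsa (chr2:164833734-164833787, plus strand): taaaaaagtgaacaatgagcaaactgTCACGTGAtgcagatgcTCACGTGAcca
Ctsd (chr7:142387893-142387952, minus strand): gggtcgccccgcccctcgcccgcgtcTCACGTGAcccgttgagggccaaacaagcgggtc
Mcoln1 (chr8:3500447-3500506, plus strand): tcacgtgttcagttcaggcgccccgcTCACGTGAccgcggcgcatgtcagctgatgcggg

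The motif began 4 bases before the annotated start in Atp6v0d1 and 132 bases before it in Atp6v1a, with Atg3, Ctsd, Mcoln1 and the first copy in Ctsa between these. The second copy in Ctsa begins after the annotated start. A match in these letters is a description of the sequence and not evidence that a factor was bound.

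None of the 36 genes passed the test for a difference between CBZ and DMSO. Each gene was read from its brightest probe and tested with limma. The p-values were adjusted by Benjamini-Hochberg across the 22352 probes that were bright enough, and 0.05 was the threshold. By that rule 0.0528% of all 17047 genes passed, 0.0469% higher and 0.00587% lower with CBZ, so a count of 0 among 36 is near the background. None of the 51 member probes passed either, where 0.0626% of all probes did, 0.0537% higher and 0.00895% lower. The smallest adjusted p of any member in limma was 0.461. At an unadjusted p under 0.05 in limma, 2 members were lower with CBZ (Ulk2 and Tfe3) and 0 were higher, against 3.97% of all genes lower and 5% higher. Because the tissue is whole liver, fewer cells of a type and less RNA per cell cannot be told apart in any of these values, and the p-values measure the spread between these mice.

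The 95% interval of the fold change lay within 2-fold in both directions for all 36 members, as it did for 94.5% of all genes. A rise of 1.5-fold or more lay outside the interval of 35 members, against 79.1% of all genes. The exception was Atg14, whose upper limit was 1.51-fold. A fall of 1.5-fold lay outside the interval of 31 members, against 84.2% of all genes. The other 5 were Tfeb, Ulk2, Atp6v1h, Tfe3 and Wipi1, whose lower limits were 0.588, 0.596, 0.616, 0.655 and 0.657 of the DMSO level. The shares over all genes were not matched for signal, and 31 members had a mean log2 signal above 2. Among all genes the 5th to 95th percentile of the log2 fold change ran from -0.28 to 0.28 above that signal. At a signal of 0 or less it ran from -0.38 to 0.49.

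More members were lower than higher with CBZ, but no single member passed the test and the count of lower members was not tested. With CBZ 27 of the 36 genes had a lower mean and 9 a higher mean, while 50.9% of all genes had a lower mean. The median log2 fold change of the members was -0.11, against -0.0043 over all genes, and the members ranged from -0.40 for Ulk2 to 0.25 for Atg14. The median moved by over 1.5 times when 1 DMSO mouse was left out, to -0.06 without replicate 1, -0.05 without replicate 2 and -0.20 without replicate 3. Scaled by the array median, 30 members were lower, but so were 70.6% of all genes, with medians of -0.21 and -0.10. In 4 members (Tfe3, Ulk2, Atg12 and Neu1) the groups did not overlap and CBZ was the lower, as in 6.65% of all genes. In no member did they separate with CBZ the higher, as they did in 6.26% of all genes. By probe, 6 of the 51 separated with CBZ the lower, against 7% of all probes.

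The DMSO arrays and CBZ replicate 1 lay in 1 row of the slide and CBZ replicates 2 and 3 in the other. When the row was added to the fit, so that only CBZ replicate 1 was set against DMSO, 30 members were lower and 6 higher, the median was -0.12 and none passed the test in limma.

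**Figure D1:**
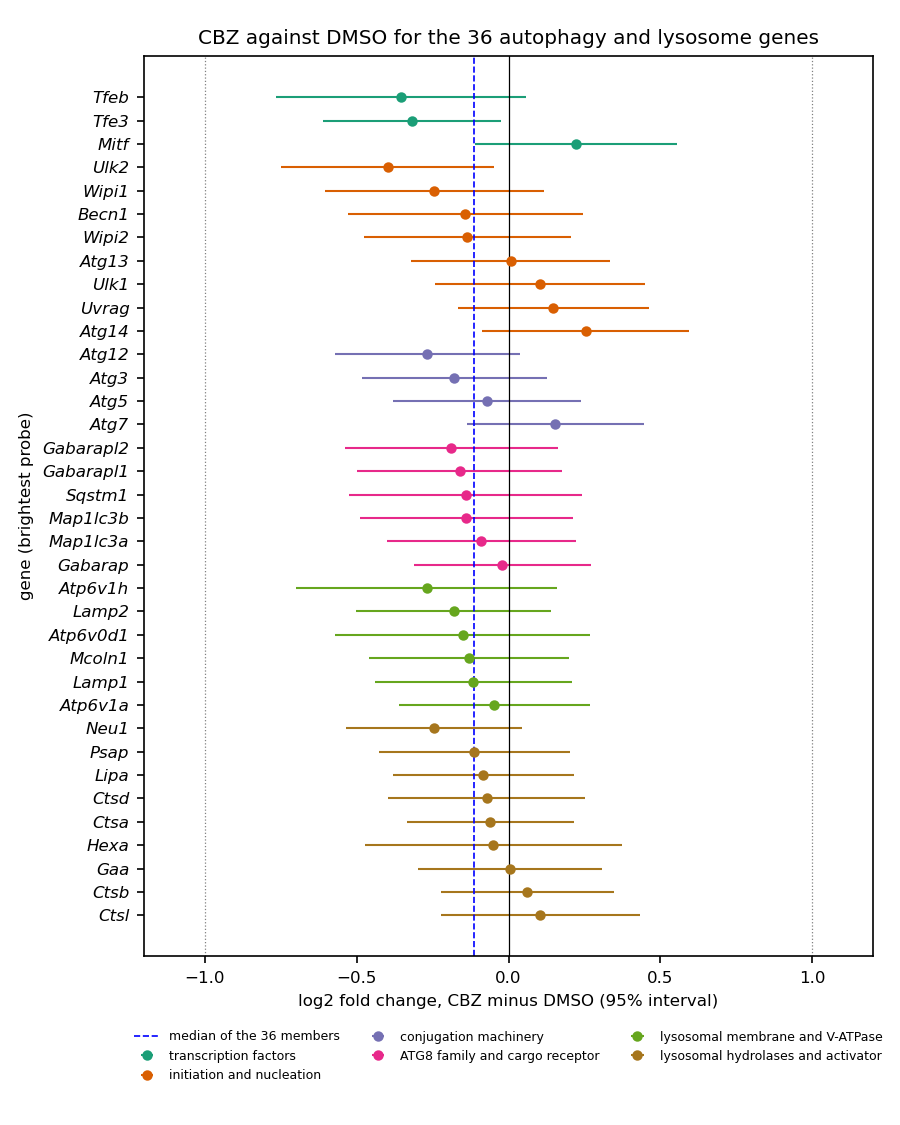
Log2 fold change, CBZ minus DMSO, of the 36 genes by role, with the 95% interval of each as a bar, the median of the 36 as a dashed line and 2-fold limits as dotted lines. All 36 intervals lie within 2-fold, and 27 of the 36 points lie below 0.

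Within the DMSO group the members varied over a wider range than within the CBZ group. The mean deviation of the 36 genes from their 6-mouse average, in log2 units, was 0.15, 0.12 and -0.12 in DMSO replicates 1, 2 and 3. In CBZ replicates 1, 2 and 3 it was -0.08, 0.05 and -0.11. The CBZ mice lay inside the range of the DMSO mice, and DMSO replicate 3 was the lowest of all 6. That mouse was the lowest of the DMSO group in 33 of the 36 genes, against 45% of all genes.

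Most of the brighter genes of the array were also lower in mean with CBZ. Among the 6568 genes with a mean log2 signal above 2, a limit chosen after seeing the data, 59.7% were lower with CBZ and DMSO replicate 3 was the lowest DMSO mouse in 68.3%. Of the 31 members in that range 23 were lower (74.2%), with a median of -0.09 against -0.03 for all genes of that range. Among genes with a mean log2 signal of 0 or less, 40.5% were lower. The part of signal level in the count of lower members was not tested.

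**Figure D2:**
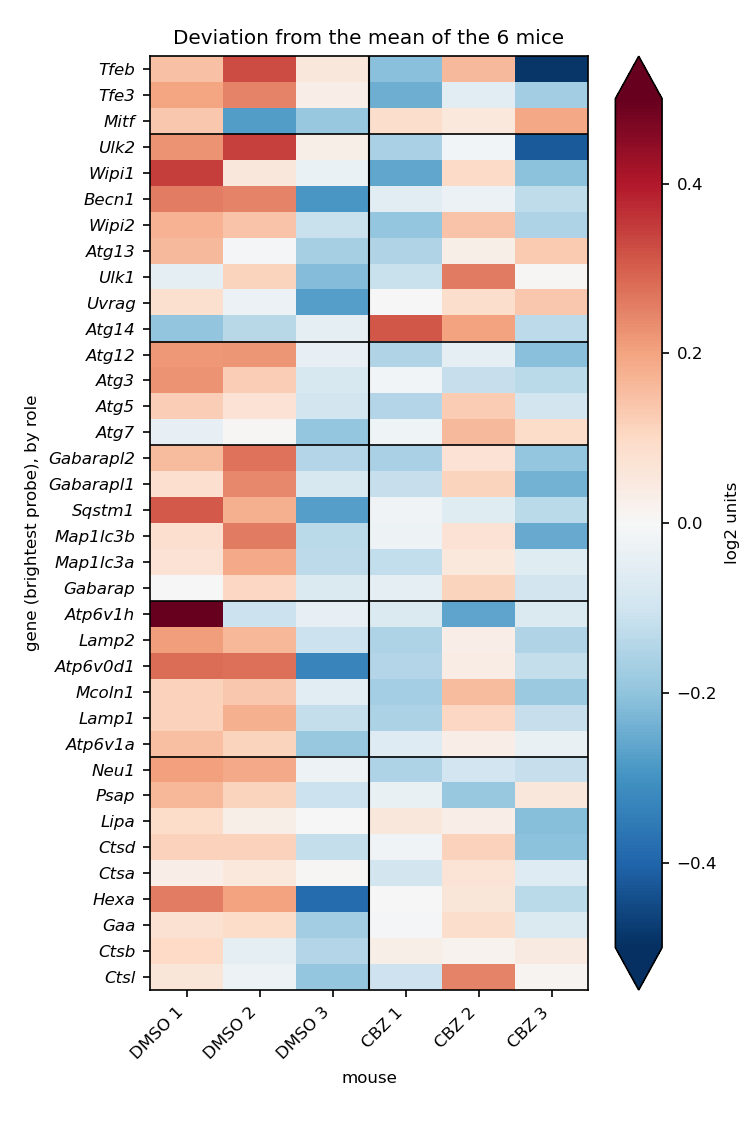
Level of each of the 36 genes in each of the 6 mice, shown in colour as a deviation in log2 units from the mean of that gene over the 6 mice (red above, blue below). DMSO replicate 3 is the lowest DMSO mouse in 33 of the 36 genes.

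**Figure D3:**
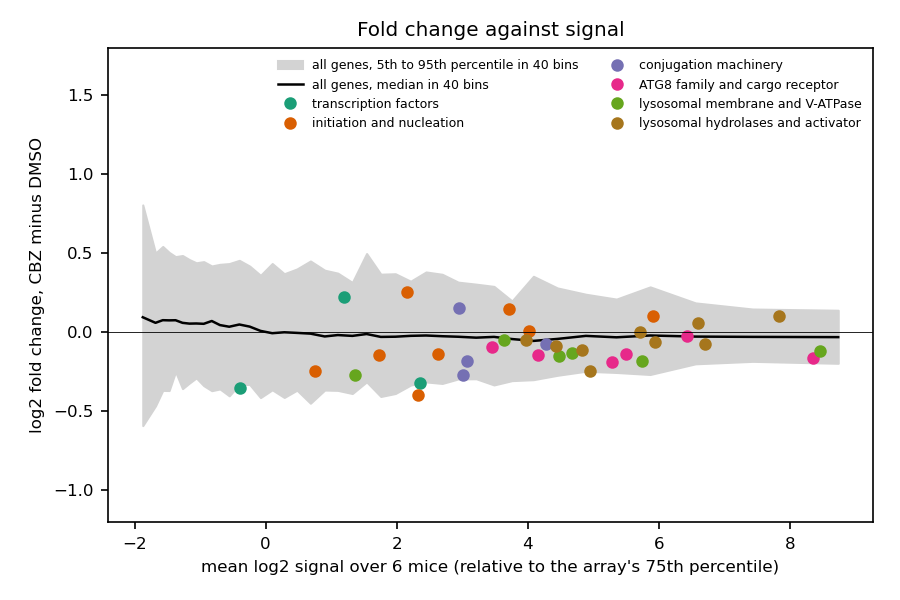
Log2 fold change, CBZ minus DMSO, against the mean log2 signal of a gene, for the 36 members (points, coloured by role) and for all genes in bins of signal (line, median; band, 5th to 95th percentile). The members lie mostly at a signal above 2, where 59.7% of all genes are lower with CBZ.

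None of the 3 transcription factors passed the test, and 2 had a lower and 1 a higher mean with CBZ. Levels are log2 signals relative to the 75th percentile of each array, listed for replicates 1, 2 and 3 in that order. Tfe3 (X chromosome, mm9 chrX:7352268-7352327) measured 2.56, 2.60 and 2.39 with DMSO and 2.12, 2.30 and 2.18 with CBZ. The groups did not overlap, and the log2 fold change was -0.32 ± 0.13 (SE, n = 3 per group), a 1.25-fold lower level with an adjusted p of 0.484 in limma. Its second probe also separated the groups, with a log2 fold change of -0.18 ± 0.12. Tfeb was dim, at -0.25, -0.07 and -0.34 with DMSO and -0.60, -0.23 and -0.88 with CBZ. The groups overlapped through CBZ replicate 2, and the log2 fold change of -0.35 ± 0.18 had an adjusted p of 0.624 in limma. Its interval reached the furthest down among the members, to a 1.70-fold lower level. Mitf, the relative best known from pigment cells, measured 1.34, 0.92 and 1.01 with DMSO and 1.29, 1.25 and 1.40 with CBZ. Its groups overlapped, its log2 fold change was 0.22 ± 0.15, and a second probe gave 0.04 ± 0.16.

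Among the 8 genes of initiation and nucleation 4 were higher and 4 lower, none past the threshold, with a median log2 fold change of -0.06. Ulk2, a kinase of the initiating complex, measured 2.55, 2.67 and 2.36 with DMSO and 2.16, 2.32 and 1.91 with CBZ. Every CBZ mouse lay below every DMSO mouse. The log2 fold change of -0.40 ± 0.15 corresponds to a 1.32-fold lower level and had an adjusted p of 0.461 in limma, with an unadjusted p of 0.0306. Its second, dimmer probe gave -0.32 ± 0.18 with overlapping groups. Ulk1, the better known kinase of the pair, measured 5.86, 6.02 and 5.69 with DMSO and 5.80, 6.17 and 5.91 with CBZ. Those groups overlapped, and the log2 fold change was 0.10 ± 0.15.

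Atg14, which directs the lipid kinase complex to the site of autophagosome formation, had the highest fold change of the members. It measured 1.96, 2.02 and 2.12 with DMSO and 2.47, 2.36 and 2.03 with CBZ. CBZ replicates 1 and 2 lay above all DMSO mice and CBZ replicate 3 lay among them. The log2 fold change was 0.25 ± 0.15, with an adjusted p of 0.718 in limma. Becn1, the scaffold of the same complex, measured 1.98, 1.98 and 1.43 with DMSO and 1.67, 1.70 and 1.60 with CBZ, so that DMSO replicate 3 was the lowest of the 6 mice. Its log2 fold change was -0.14 ± 0.17. Uvrag, an alternative partner of Becn1, gave 0.15 ± 0.14, and Atg13, an adaptor of the ULK kinases, gave 0.01 ± 0.14. Wipi1 and Wipi2 bind the lipid that the complex makes. The 3 probes of Wipi1 gave -0.24 ± 0.16, -0.29 ± 0.14 and 0.07 ± 0.16, so they disagreed in sign. The brightest Wipi2 probe gave -0.14 ± 0.15 and the other -0.04 ± 0.15.

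The Becn1 probe is shown because its 60 bases span an intron in the genome. Its letters, 5′ to 3′ (mm9, minus strand), are those of the array design.
Becn1 probe (chr11:101151771-101152713): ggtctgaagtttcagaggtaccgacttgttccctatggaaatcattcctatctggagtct

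The 4 genes of the conjugation machinery had 3 lower values and 1 higher, none past the threshold. Atg12, the ubiquitin-like protein joined to Atg5, measured 3.23, 3.24 and 2.98 with DMSO and 2.87, 2.97 and 2.81 with CBZ. The groups did not overlap, by a margin of DMSO replicate 3 over CBZ replicate 2 that is small beside the spread of the DMSO mice. Its log2 fold change was -0.27 ± 0.13 with an adjusted p of 0.618 in limma, and its second probe gave -0.16 ± 0.12 with overlapping groups. Atg3, the enzyme that passes ATG8 proteins to the membrane lipid and a carrier of TCACGTGA, gave -0.18 ± 0.13. Atg5 gave -0.07 ± 0.14. Atg7, the activating enzyme of the system, gave 0.15 ± 0.13 on its brightest probe and -0.04 ± 0.14 on the other.

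All 6 genes of the ATG8 family and its cargo receptor had a lower mean with CBZ, and none passed the threshold. Their median log2 fold change was -0.14 and they ranged from -0.19 to -0.02. Map1lc3b, which encodes the LC3 protein used as a marker of autophagosomes, measured 5.58, 5.76 and 5.36 with DMSO and 5.47, 5.57 and 5.24 with CBZ. The groups overlapped, and the log2 fold change was -0.14 ± 0.15. Gabarapl1 measured 8.44, 8.59 and 8.27 with DMSO and 8.24, 8.47 and 8.12 with CBZ, again with overlap and a log2 fold change of -0.16 ± 0.15. Sqstm1, the receptor that carries ubiquitinated cargo into the autophagosome, measured 4.47, 4.34 and 3.89 with DMSO and 4.14, 4.10 and 4.02 with CBZ. All CBZ mice lay inside the DMSO range, whose lowest value was DMSO replicate 3, and the log2 fold change was -0.14 ± 0.17. A second, dimmer Sqstm1 probe gave -0.19 ± 0.16. On that probe DMSO replicate 3 (-0.46) was the highest of the 6 mice and CBZ replicate 1 (-1.06) the lowest. Gabarapl2, Map1lc3a and Gabarap gave -0.19 ± 0.15, -0.09 ± 0.14 and -0.02 ± 0.13. The dimmer Gabarap probes gave -0.14 ± 0.14 and -0.19 ± 0.14.

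All 6 genes of the lysosomal membrane and of the proton pump (V-ATPase) also had a lower mean with CBZ, with a median of -0.14 and none past the threshold. Lamp1, a main glycoprotein of the lysosomal membrane, measured 8.57, 8.63 and 8.34 with DMSO and 8.29, 8.56 and 8.34 with CBZ. The groups overlapped, with a log2 fold change of -0.12 ± 0.14. Its relative Lamp2 gave -0.18 ± 0.14 on 1 probe and -0.02 ± 0.12 on the other. Mcoln1, a calcium channel of the lysosome, gave -0.13 ± 0.14. Among the pump subunits, Atp6v0d1 measured 4.76, 4.75 and 4.15 with DMSO and 4.33, 4.52 and 4.36 with CBZ. DMSO replicate 3 was the lowest of the 6 mice there, and the log2 fold change was -0.15 ± 0.18. Atp6v1h measured 1.91, 1.25 and 1.32 with DMSO and 1.29, 1.10 and 1.29 with CBZ, where DMSO replicate 1 stood above the other 5 mice, and gave -0.27 ± 0.19. The brightest Atp6v1a probe gave -0.05 ± 0.14, and its other probe 0.18 ± 0.14.

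Of the 9 genes of lysosomal hydrolases and their activator 3 were higher and 6 lower, with a median of -0.06 and none past the threshold. Neu1, the lysosomal sialidase, measured 5.15, 5.14 and 4.92 with DMSO and 4.79, 4.85 and 4.83 with CBZ. The groups did not overlap, and the log2 fold change was -0.25 ± 0.13 with an adjusted p of 0.631 in limma. Ctsa, which encodes the protein that stabilises Neu1 and carries 2 copies of TCACGTGA, gave -0.06 ± 0.12. The proteases Ctsb, Ctsl and Ctsd gave 0.06 ± 0.13, 0.11 ± 0.14 and -0.07 ± 0.14. Gaa, which digests glycogen, and Lipa, which digests cholesteryl esters and triglycerides, gave 0.01 ± 0.13 and -0.08 ± 0.13. A second, dimmer Gaa probe gave 0.12 ± 0.29. Psap, the precursor of the sphingolipid activators, gave -0.11 ± 0.14. Hexa, a subunit of the hexosaminidase, measured 4.24, 4.18 and 3.60 with DMSO and 3.98, 4.04 and 3.84 with CBZ, so that DMSO replicate 3 lay below every other mouse and the log2 fold change was -0.05 ± 0.19.

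A second Ctsd probe also spans an intron in the genome and is shown because its values spread further between mice than those of the first.
Ctsd probe (mm9, chr7:149566847-149568505, minus strand): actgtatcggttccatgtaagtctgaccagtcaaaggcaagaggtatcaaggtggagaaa

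It measured 3.80, 3.80 and 2.76 with DMSO and 3.49, 3.38 and 3.18 with CBZ. DMSO replicate 3 stood far below the other 5, and the log2 fold change of -0.11 ± 0.27 had a standard error larger than itself. A dim probe of Ctsa was well above background on 3 of 6 arrays and was not tested.

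The 6 genes with TCACGTGA in the promoter all had lower means with CBZ, with a median of -0.10 and a range of -0.18 to -0.05. The other 25 genes searched had a median of -0.11, with 8 higher and 17 lower. For CACGTG the 12 genes with the motif had a median of -0.07 and the 19 without it -0.14. None of these genes passed the threshold, and the difference between the groups of genes was not tested.

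Other genes of the same pathways were read from 6 further lists, which hold 184 genes, 170 of them measured. None of the 170 passed the threshold in limma. At an unadjusted limma p under 0.05 there were 4 of them on each side (2.35%), fewer than the 5% of all genes higher and 3.97% lower. Of the 170, 56 were higher and 114 lower (67.1%, against 50.9% of all genes), with a median of -0.05. The share over all genes was not matched for signal. Among all genes with a mean log2 signal above 2, 59.7% were lower, with a median of -0.03. The list of genes that control mTORC1, AMPK and TFEB had 7 higher and 25 lower, with a median of -0.13, and the list of selective autophagy receptors 8 higher and 10 lower, with a median of -0.01. Other autophagy machinery had 12 higher and 19 lower (median -0.03), other hydrolases 16 and 26 (median -0.04), other membrane proteins and transporters 8 and 24 (median -0.05) and other V-ATPase subunits 5 and 10 (median -0.09).

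Ddit4, a stress-induced inhibitor of mTORC1, had the largest difference of the 170. It measured 5.24, 4.84 and 5.42 with DMSO and 5.57, 7.05 and 7.63 with CBZ. The groups did not overlap, but CBZ replicate 1 lay close to the DMSO mice. Its log2 fold change was 1.58 ± 0.45, a 2.99-fold higher level with an adjusted p of 0.302 in limma. Without CBZ replicate 1 the log2 fold change was 2.17 with an adjusted p of 0.0216 in limma. In that setting all DMSO arrays lay in row 1 of the slide and all CBZ arrays in the other row. Treatment and row cannot be told apart there. Within row 1, where CBZ replicate 1 is the only CBZ mouse, the log2 fold change was 0.40. The gene was named by a rule that takes the smallest p-values of each list.

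Atg9a, the membrane protein that seeds autophagosomes, measured 1.43, 1.67 and 1.73 with DMSO and 1.33, 1.01 and 0.91 with CBZ, and its log2 fold change of -0.53 ± 0.16 had an adjusted p of 0.325 in limma. Its groups did not overlap. Stbd1, which binds glycogen, gave 0.41 ± 0.16. The V-ATPase subunit Atp6v0d2, which was dim (mean log2 signal -0.95), gave 0.45 ± 0.17. Stx17, which joins autophagosome and lysosome, and Atg4d, which trims ATG8 proteins, gave -0.34 ± 0.14 and 0.33 ± 0.14. Foxo3, a transcription factor of starvation, and Flcn, a regulator of mTORC1, gave -0.37 ± 0.16 and -0.35 ± 0.15. Retreg1 and Tex264, receptors for the endoplasmic reticulum, gave 0.23 ± 0.15 and -0.23 ± 0.14. Among hydrolases the protease Ctsk, also dim (-0.65), gave -0.38 ± 0.18, the hyaluronidase Hyal1 -0.19 ± 0.13 and the sphingomyelinase Smpd1 -0.17 ± 0.13. The sialic acid exporter Slc17a5 gave -0.33 ± 0.16, the cystine exporter Ctns -0.22 ± 0.12 and the membrane protein Cd63 0.30 ± 0.17. The pump subunits Atp6v1b2 and Atp6v0a2 gave -0.34 ± 0.24 and -0.20 ± 0.14. Atp6v1b2 was dim (-1.57) and well above background on 5 of 6 arrays. None of these passed the threshold.

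**Figure D4:**
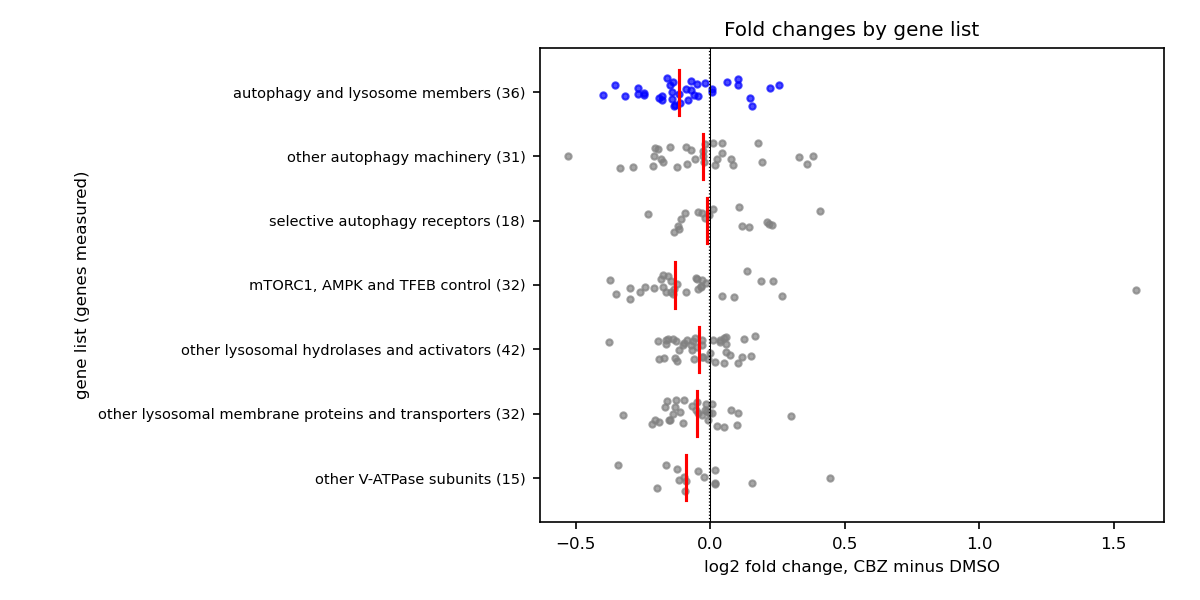
Log2 fold change, CBZ minus DMSO, of the members and of 6 lists of other autophagy and lysosome genes, 1 point a gene, with the median of each list as a bar. The point at 1.58 is Ddit4.

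The markers of other liver cells were compared with the members mouse by mouse. All 10 hepatocyte markers were well above background on all 6 arrays, so the defining markers of the labelled tissue were present. All 13 markers of Kupffer cells and macrophages, which are rich in lysosomes, were measured, 10 of them higher and 3 lower with CBZ and none past the threshold. Their mean deviation ranged from -0.51 to 0.63 with DMSO and from -0.05 to 0.19 with CBZ, highest in DMSO replicate 1 and lowest in DMSO replicate 3. In DMSO replicates 1, 2 and 3 these markers deviated by 0.63, -0.27 and -0.51, and the hydrolase members by 0.12, 0.08 and -0.13. The initiation members deviated by 0.12, 0.09 and -0.14 in the same mice, and all genes with a mean log2 signal above 2 by 0.08, 0.03 and -0.08. The markers of endothelial cells (6 higher, 2 lower), stellate cells and fibroblasts (6 higher, 2 lower), cholangiocytes (2 higher, 1 lower) and lymphocytes and neutrophils (6 higher, 1 lower) held none past the threshold in limma. The part of these cells in the levels of the lysosomal genes was not tested.

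**Figure D5:**
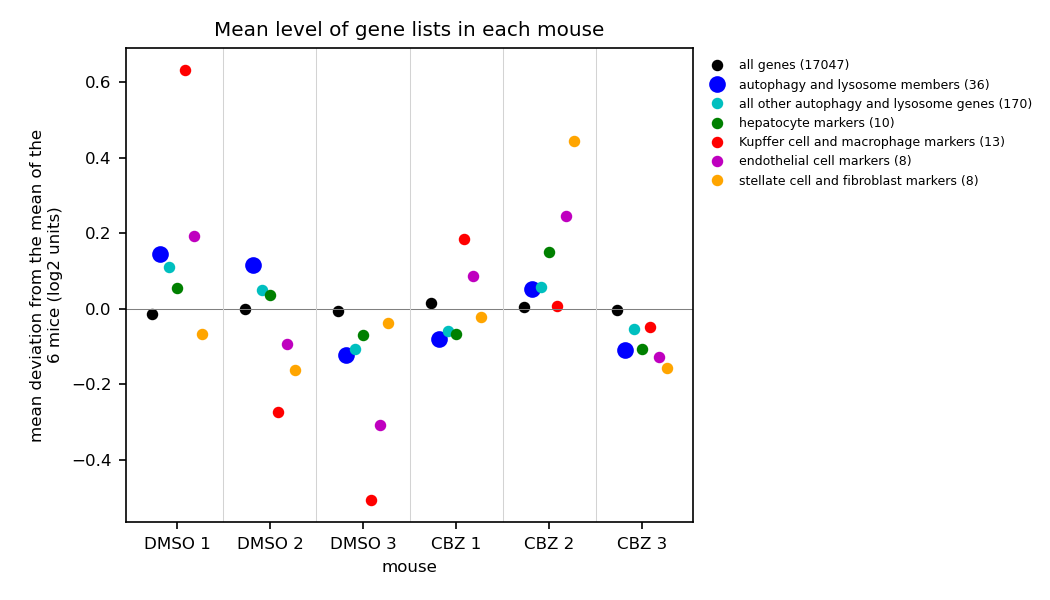
Mean deviation of each gene list from its 6-mouse average, in log2 units, for each mouse, with the number of genes in brackets. The 36 members range from -0.12 in DMSO replicate 3 to 0.15 in DMSO replicate 1, and the Kupffer cell markers from -0.51 to 0.63 in the same mice.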

How the data were processed

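Whole-liver RNA of 3 CBZ and 3 DMSO mice was analysed, with groups and replicate numbers from the labels. In the deposited scanner files a spot's value is a linear intensity, background-subtracted by Agilent Feature Extraction 10.7.3.1, per the file headers. The authors' deposited value table holds a ratio of that intensity to the array median, found by setting both against each other. Control spots and outlier spots (114 to 126 per array) were left out. The log2 intensity minus each array's 75th percentile was averaged over the spots of a probe. Probes well above background on all 3 arrays of a group were kept, 22352 probes of 17047 genes, and a gene was read from its brightest probe. Between 42.6% and 45.8% of spots were well above background and none was saturated. The number of arrays limits the precision.

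Groups were compared with limma 3.58.1 in R 4.3.3 (two-sided, no covariate, Benjamini-Hochberg adjustment over all probes kept, threshold 0.05), and values are given ± the moderated standard error. The fit was also tried on simulated data of 22352 probes, with true differences put into 200 of them in each of 10 runs. It found 60.6% of the 2-fold differences, 93.1% of the 4-fold and 99.1% of the 8-fold. Probes without a true difference made up 4.7% of those it picked. On the real arrays 14 probes passed, and the adjustment is stricter where fewer probes differ. The share of 60.6% may therefore be too high for these arrays, and their own sensitivity was not tested. All members are named, and of each other list the 3 genes with the smallest p. Members and lists were chosen with earlier results of these data known. Probes were named through a RefSeq gene table where it held them, and 24263 of the 55681 probes kept the name given by the array. The genes counted over the whole array may therefore include names that are not in that table. Probe coordinates are those of the array design (mm9). All arrays lay on 1 slide with 1 scan date, with the DMSO mice and CBZ replicate 1 in row 1 and CBZ replicates 2 and 3 in row 2, so the row was tried as a covariate. Other alternatives were background correction, scaling, filters, the variance model, the authors' ratios, a block for replicate number, probe averaging, an adjusted p under 0.10, leaving out each mouse, and a limit on signal added after seeing the data. Protein sequences were not used here.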

Additional observations from a re-analysis of the deposited data

How the results depend on the processing

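No member passed the threshold in limma under any alternative. The median of the 36 genes lay between -0.05 (without DMSO replicate 2) and -0.20 (without DMSO replicate 3) when a mouse was left out, and was -0.06 without DMSO replicate 1. Scaling by the array median moved it to -0.21 and the median of all genes to -0.10. In 10 members the sign changed under at least 1 alternative, and in the other 26 and the 18 other named genes it did not. Values of the changed sign were -0.0588 for Ulk1 with slide row as covariate, and for Atg13 -0.0196 (normexp), -0.0925 (median scaling and the authors' table) and -0.15 (slide row). They were 0.0064 for Gabarap (percentile over detected spots), 0.0678 for Atp6v1a (probe mean), -0.0373 for Ctsb (median scaling and the authors' table), -0.0503 for Ctsl and 0.0134 for Lipa (slide row). For Gaa they were -0.0057 (normexp), -0.0939 (median scaling and the authors' table) and -0.0016 (slide row). With a mouse left out the ranges were -0.0017 to 0.18 for Ulk1, -0.0737 to 0.0898 for Atg13, -0.0799 to 0.0262 for Gabarap, -0.15 to 0.017 for Atp6v1a, -0.15 to 0.0125 for Ctsd, -0.0798 to 0.052 for Gaa, -0.25 to 0.066 for Hexa and -0.13 to 0.0030 for Lipa. The cause was not tested.

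Over all probes limma called 12 higher and 2 lower. The calls higher were 76 with normexp, 5 with quantile scaling, 60 with median scaling and with the authors' table, 6 with the percentile over detected spots, 0 with no filter, 31 with detection on all 6 arrays, 83 with an intensity trend, 4 with the slide row and 37 at an adjusted p under 0.10. The calls lower were 54 with normexp, 71 with median scaling and with the authors' table, 0 with the percentile over detected spots, 0 with no filter, 12 with detection on all 6 arrays, 91 with an intensity trend and 21 at an adjusted p under 0.10. At an unadjusted p under 0.05 limma gave 1705 higher and 908 lower with no filter, and 892 lower with the percentile over detected spots. Leaving out a mouse gave 0 to 22 higher and 0 to 8 lower. Both upper ends came without CBZ replicate 1, where treatment and slide row cannot be told apart. Same-numbered mice correlated with r of -0.24, 0.016 and 0.18 in their deviations from the group means. Of the 3 CBZ mice 1 was closest to its own number. The replicate numbers gave no sign of pairing the mice, but 3 mice per group cannot exclude it. With the replicate block limma called 1 probe lower and 0 members. Among the other pathway genes, Ddit4 was called with median scaling, with the authors' table (1 gene higher in each) and without CBZ replicate 1 (0 to 1 with a mouse left out), and their median moved from -0.05 to -0.15 with median scaling and with the authors' table. Those 2 settings hold the same scaling and gave the same values, so they are 1 alternative and not 2. Under them limma used a variance common to all probes. Dim probes limit the data, since 3 of the 54 member probes were not bright enough to test.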
